A study of Homo sapiens with 4 samples.

Results

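The genes described here are 9 components of MHC class I antigen presentation, namely the heavy chains HLA-B, HLA-C, HLA-E and HLA-F, the light chain B2M, the transporter subunits TAP1 and TAP2, and the inducible proteasome subunits PSMB8 and PSMB9. They were found on the arrays through the accession that the scanner files give for each probe, which a RefSeq gene table pairs with a symbol. This gave 13 probes of the 41000 on the array, 3 for HLA-E, 2 each for HLA-B and TAP2, and 1 for each other gene. All 13 were among the 39151 probes kept, in which the scanner software marked 1 channel or both as clearly over background on all arrays.

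Total RNA came from A2780s, an ovarian adenocarcinoma cell line, in 3 stably transfected clones. The clones sh-G1 and sh-G2 carry the same shRNA against GALNT3, an enzyme that starts O-linked glycosylation of mucin-type proteins, in a puromycin-selected vector, and ctrl is a single mock-transfected clone. Against ctrl, each of the knockdown clones was hybridised to 2 Agilent arrays of 2 colours, with the knockdown RNA in Cy5 on replicate 1 and in Cy3 on replicate 2. Every value below is a log2 ratio of knockdown over ctrl unless called a level, so that -1 is a 2-fold lower signal, and the mean is that of the 2 clones, each the mean of its dye-swapped arrays (n = 2 clones). The mean was tested against 0 with limma over all probes kept, with Benjamini-Hochberg adjustment and a threshold of 0.05. Because the same ctrl clone was used on all 4 arrays, the comparisons of sh-G1 and sh-G2 share it, its own spread is not in the test, and a trait of that clone cannot be told apart from an effect of the knockdown. Nothing in the sources used here says that the arrays of a clone came from separate cultures, and p-values of the mean measure the spread between these 2 clones. In such bulk RNA, fewer cells that express a gene and less RNA per cell cannot be told apart.

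All 4 arrays lay on 1 slide, with 0 saturated spots, 145 to 215 outlier spots left out per array, and median spot intensities between 451.5 and 802.5. The share of spots well above background was 88.1% in the knockdown channel of sh-G2 replicate 2, against 95.4% to 97.0% in that of the other 3 arrays and 95.9% to 97.6% in the ctrl channel. GALNT3 itself, the knockdown target, is read by 1 probe, which read -0.09 and 0.08 in sh-G1 and 0.12 and -0.14 in sh-G2. Only 0.4% of the probes kept were dimmer than this probe, and its knockdown channel rose clearly over background on 2 of 4 arrays. The study picked both clones for reduced GALNT3 by RT-PCR and Western blot, outside these arrays. The arrays themselves do not check the labels of the clones, and every direction given here is that of the clones as labelled. Among epithelial markers fixed for this work, CDH1 was dim, with 16.2% of the probes kept dimmer, while KRT8 and KRT18 were bright in their brightest probes, above 76.0% and 84.1% of the probes kept. Both keratin genes were lower in the knockdown clones, by log2 ratios of -1.03 for the brighter KRT8 probe and -1.96 to -2.50 for the 3 KRT18 probes, which limma called with adjusted p from 0.0195 to 0.0365 after Benjamini-Hochberg adjustment. In all, 4 of 12 epithelial probes were called lower, against 0.700% of all probes kept. Taking each gene by its brightest probe, limma called 2 of the 8 listed epithelial genes lower, against 153 of all 16879 genes. By that measure 3 of the 8 were lower on all 4 arrays, against 1738 of the 16879, and the median of the 8 was -0.04. For leukocyte markers the 6 probes kept lay between -0.07 and 0.04, and the 4 endothelial probes between -0.07 and 0.06. The fibroblast list had 4 probes of 3 genes kept, with means from -3.31 to 0.01. Of these probes 3 were lower on all 4 arrays, against 9.04% of all probes kept, and limma called 0. Its genes DCN and LUM had the lowest ratios of any marker, -3.17 and -3.31, with unlike values in the clones. The remaining gene, COL1A2, had a mean of -0.33 by its brightest probe. The part of these marker differences in the class I values was not tested.

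MHC class I molecules show peptides from inside the cell to CD8+ T cells and to natural killer cells. Proteins are cut by the proteasome, in which the subunits PSMB8 and PSMB9 replace constitutive ones under interferon, and the peptides are carried into the endoplasmic reticulum by the transporter made of TAP1 and TAP2. There they are trimmed and loaded onto a heavy chain paired with beta-2 microglobulin, the product of B2M, before the complex moves to the cell surface. Transcription of these genes is known to respond to interferons through IRF factors, to NF-kB, and to the transactivator NLRC5. Tumour cells often express several of them at a low level.

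The promoters of 5 members are shown, namely TAP1, TAP2 and PSMB9, which lie close together, and HLA-B and B2M, which lie elsewhere. Any link between these sequences and the ratios was not tested. RefSeq windows of 300 bases, from 250 before to 50 after the start of transcription in GRCh38.p14, were found for 8 of the 9 genes. For HLA-E no window is shown. Capitals mark matches on either strand to the interferon-stimulated response element core (GAAANNGAAA), the gamma-activated site (TTCNNNGAA) and the NF-kB consensus, and overlapping matches run together. TAP1 has 2 windows in the table, and the one shown is the one next to PSMB9. These are reference sequences and not reads of the A2780s clones.
HLA-B, chr6:31357130-31357429, minus strand: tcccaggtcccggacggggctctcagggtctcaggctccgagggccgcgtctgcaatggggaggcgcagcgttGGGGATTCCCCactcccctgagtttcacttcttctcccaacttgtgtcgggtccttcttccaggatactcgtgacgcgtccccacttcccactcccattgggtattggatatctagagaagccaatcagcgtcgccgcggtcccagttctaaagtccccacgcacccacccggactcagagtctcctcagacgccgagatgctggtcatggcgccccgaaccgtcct
B2M, chr15:44711267-44711566, plus strand: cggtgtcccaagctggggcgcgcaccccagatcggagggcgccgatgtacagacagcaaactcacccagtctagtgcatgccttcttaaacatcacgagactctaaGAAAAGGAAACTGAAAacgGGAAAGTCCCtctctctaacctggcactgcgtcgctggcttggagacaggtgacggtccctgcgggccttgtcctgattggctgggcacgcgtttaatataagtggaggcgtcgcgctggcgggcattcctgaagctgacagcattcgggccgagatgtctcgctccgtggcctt
TAP1, chr6:32853655-32853954, minus strand: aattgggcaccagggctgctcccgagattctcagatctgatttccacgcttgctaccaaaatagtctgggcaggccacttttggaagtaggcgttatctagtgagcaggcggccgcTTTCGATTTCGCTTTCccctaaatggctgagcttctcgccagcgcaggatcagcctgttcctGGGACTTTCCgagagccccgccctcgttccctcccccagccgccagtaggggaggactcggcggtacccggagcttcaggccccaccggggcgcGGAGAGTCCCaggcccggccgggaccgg
PSMB9, chr6:32853942-32854241, plus strand: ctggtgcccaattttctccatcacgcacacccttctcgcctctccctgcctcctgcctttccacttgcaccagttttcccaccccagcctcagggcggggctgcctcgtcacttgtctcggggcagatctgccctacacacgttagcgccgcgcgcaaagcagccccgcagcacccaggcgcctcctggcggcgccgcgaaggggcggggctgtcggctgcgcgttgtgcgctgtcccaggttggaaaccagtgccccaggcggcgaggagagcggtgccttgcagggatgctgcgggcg
TAP2, chr6:32838690-32838989, minus strand: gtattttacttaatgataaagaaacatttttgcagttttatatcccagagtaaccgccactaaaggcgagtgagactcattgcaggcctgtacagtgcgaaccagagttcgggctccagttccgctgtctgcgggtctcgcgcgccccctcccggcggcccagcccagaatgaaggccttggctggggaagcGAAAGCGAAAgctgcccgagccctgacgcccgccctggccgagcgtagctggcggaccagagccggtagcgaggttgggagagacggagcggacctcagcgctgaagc

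TAP1 and PSMB9 are read away from each other, with start sites 488 bases apart in RefSeq, and the windows shown share 13 bases. The response element core was found in 5 of the 8 member genes, TAP1, TAP2, PSMB8, B2M and HLA-F, against 3.57% of all 35116 windows of this length. In TAP1 and in B2M it occurred at 2 overlapping places. The NF-kB consensus was found in HLA-B, HLA-C, TAP1 and B2M, against 11.3% of all windows, and the gamma-activated site in another window of TAP1 and in 1 window of PSMB8, against 7.66%. A CCAAT box (CCAAT, not marked) was in 6 of the 8 genes, against 34.6% of windows. These counts are of genes and the shares are of windows, and TAP1 and PSMB8 have 2 windows each. Of the 10 member windows, 5 held the response element core, 4 the NF-kB consensus, 2 the gamma-activated site and 6 a CCAAT box. The PSMB9 window held only a CCAAT box among these motifs, although the TAP1 window that overlaps it at its end held 2 response element cores. This CCAAT box lies in the 13 shared bases and is the same site as the CCAAT box of TAP1, so 1 site counts for both genes. A match is a run of letters and not a shown binding site.

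Across the members, signal was lower on all 4 arrays for 8 of 9 genes, each taken by its brightest probe, with TAP2 as the exception. PSMB9 and TAP1 fell in the limma test, PSMB9 by 5.23-fold and TAP1 by 2.78-fold, and these were 2 of the 13 probes, against 0.700% of all probes kept that were called lower. At least 1.5-fold lower on each of the 4 arrays were 6 of the 13 probes, those of HLA-B, HLA-C, HLA-F, TAP1 and PSMB9, against 0.920% of all probes kept. At any size, 11 of the 13 were lower on all 4 arrays, against 9.04% of all probes kept. The median of the 13 probes was -0.83, and that of the 9 genes, each by its brightest probe, -0.89, while the median of all probes kept was -0.004. No member probe was higher on all 4 arrays. When a spread equal to that of the knockdown clones was added for the ctrl clone, 0 of the 13 were called by limma, although 11 were lower at an unadjusted p under 0.05 in the test as made, against 8.02% of all probes kept.

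**Figure D1:**
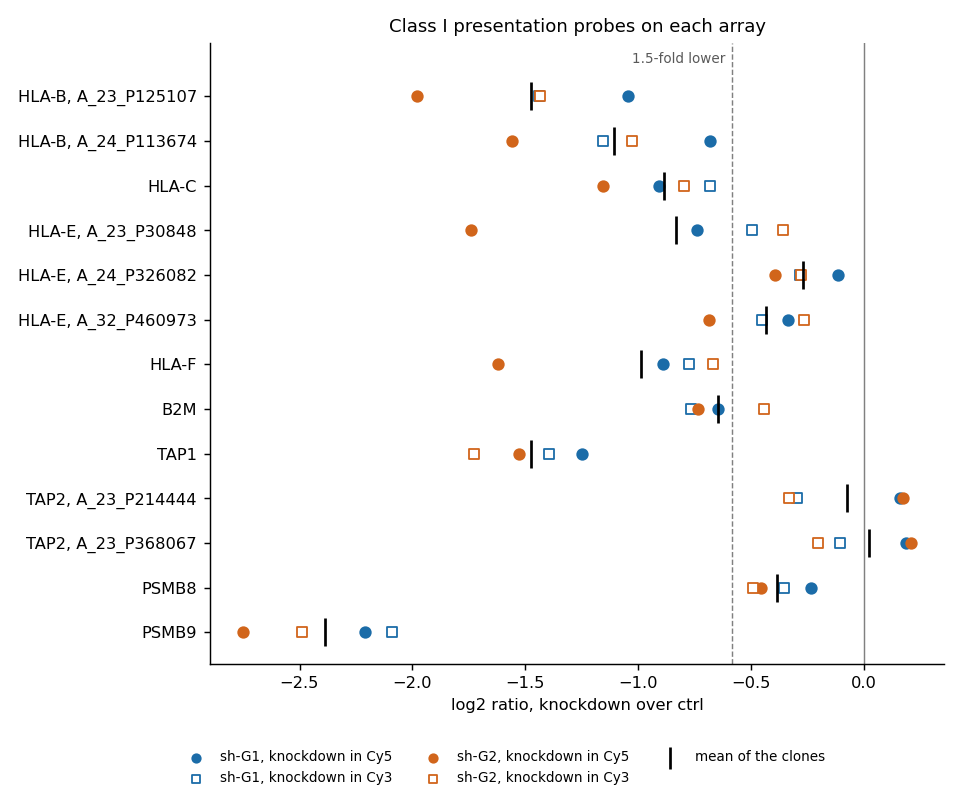
Log2 ratio of knockdown over ctrl (horizontal axis) for each of the 13 probes on each of the 4 arrays, with circles for Cy5 and squares for Cy3 in the knockdown channel, blue for sh-G1 and orange for sh-G2; black bars are the mean of the clones and the dashed line marks 1.5-fold lower. PSMB9 lies between -2.75 and -2.09 on every array, while both TAP2 probes lie on either side of 0 according to the dye.

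Among the heavy chains, HLA-B and HLA-C present peptides to CD8+ T cells, HLA-E presents leader peptides of other class I chains to natural killer cell receptors, and HLA-F is a class I chain of more restricted expression. The HLA-B probe A_23_P125107 read -1.05 and -1.44 in sh-G1 and -1.98 and -1.44 in sh-G2. The other HLA-B probe, A_24_P113674, read -0.68, -1.16, -1.56 and -1.03 in the same order. Both probes were thus below 0 on every array, and sh-G2 replicate 1 gave the lowest value of each. Their means were -1.48 ± 0.23 and -1.11 ± 0.19 (standard error, n = 2 clones), with limma adjusted p of 0.0679 and 0.0795 (Benjamini-Hochberg), which missed the threshold. HLA-C, on 1 probe, read -0.91, -0.68, -1.16 and -0.80, a narrower range, with a mean of -0.89 ± 0.09 and a limma adjusted p of 0.0573. HLA-F read -0.89, -0.77, -1.62 and -0.67, with a mean of -0.99 ± 0.16 and a limma adjusted p of 0.0722. As for HLA-B, the sh-G2 array with the knockdown in Cy5 stood below the other 3.

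HLA-E is the heavy chain on which the probes differed most. Probe A_23_P30848 read -0.74, -0.50, -1.74 and -0.36, so that 1 array supplied much of its mean of -0.83. Leaving out sh-G2 replicate 1 moved this mean to -0.49. The probes A_32_P460973 and A_24_P326082, both brighter, had means of -0.44 and -0.27, with values from -0.69 to -0.27 and from -0.40 to -0.11. All 3 HLA-E probes were below 0 on all 4 arrays, and limma called 0 of them, with adjusted p from 0.140 to 0.293 after Benjamini-Hochberg adjustment. For the probe A_23_P30848 the ctrl level was 11.68 on sh-G2 replicate 1 and 11.72 on sh-G1 replicate 1, and the knockdown levels were 9.94 and 10.98, so it was the knockdown channel that was low on that array. Class I heavy chains are close in sequence, and the probe sequences are not used here, so signal shared between HLA genes cannot be told apart in these ratios.

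B2M encodes the light chain that all of these heavy chains need. Its probe is printed 10 times on each array, which gives the error within an array that single spots lack. Averaged over the 10 spots, it read -0.65 and -0.77 in sh-G1, and -0.73 and -0.44 in sh-G2. The standard deviation between spots was 0.06 to 0.08 on 3 arrays and 0.17 on sh-G2 replicate 1, and the highest of all 40 spot values was -0.33. Every spot on every array was therefore lower in the knockdown channel. The mean was -0.65 ± 0.06, or 1.57-fold lower, with a limma adjusted p of 0.0740 (Benjamini-Hochberg). B2M did not pass the 1.5-fold rule because of sh-G2 replicate 2, and it was the 1 member probe with a lower mean in sh-G1 than in sh-G2.

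The transporter subunits gave unlike values. TAP1 read -1.25 and -1.40 in sh-G1 and -1.53 and -1.73 in sh-G2, a range of under 0.5 across dyes and clones. Its mean was -1.48 ± 0.15 (95% confidence interval -1.78 to -1.17), with a limma adjusted p of 0.0423 after Benjamini-Hochberg adjustment. In levels, the ctrl channel lay between 13.74 and 13.84 and the knockdown channel between 12.10 and 12.59, with no overlap. TAP2, by contrast, read 0.16 and -0.30 in sh-G1 and 0.17 and -0.33 in sh-G2 on its brighter probe, A_23_P214444. The other TAP2 probe, A_23_P368067, read 0.19, -0.11, 0.21 and -0.20. On both probes the sign followed the dye and not the clone, as it did for 40.5% of all probes kept. The means were -0.08 and 0.02, with 95% confidence intervals from -0.24 to 0.09 and from -0.10 to 0.14, and neither interval reaches the value of TAP1.

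Of the inducible proteasome subunits, PSMB9 had the lowest ratio of all members. It read -2.21 and -2.09 in sh-G1 and -2.75 and -2.49 in sh-G2, so both values of sh-G2 were below both of sh-G1. The ctrl level of its probe lay between 11.96 and 12.32 and the knockdown level between 9.45 and 10.11. The mean was -2.39 ± 0.23, with a 95% confidence interval of -2.79 to -1.98 and a limma adjusted p of 0.0316 (Benjamini-Hochberg). PSMB8, which lies between TAP2 and TAP1 on chromosome 6, read -0.24, -0.35, -0.46 and -0.49, with a mean of -0.39 ± 0.09 and a limma adjusted p of 0.156. Only 11.0% of the probes kept were dimmer than the PSMB8 probe. Its knockdown channel was well above background on 3 of 4 arrays and its level, 6.68 to 6.99, lay close to the dimmest knockdown signal that the software marked as over background, 6.13 to 6.77 across the arrays. How far PSMB8 could be seen to decrease was therefore limited.

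**Figure D2:**
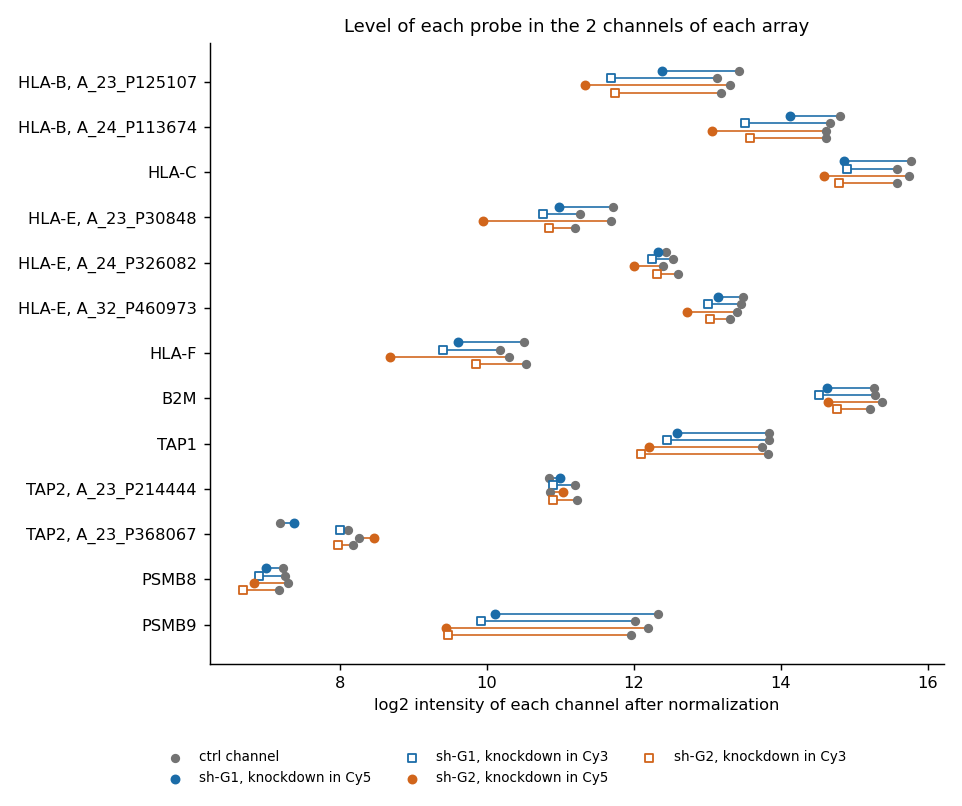
Log2 intensity of the ctrl channel (grey) and the knockdown channel (coloured) of each array, joined by a line, for each of the 13 probes after normalization within and between arrays; levels of different probes are not comparable. For 11 of the 13 probes, all but those of TAP2, every knockdown level lay below every ctrl level.

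That separation of the channels held for 11 of the 13 member probes and for 4.35% of all probes kept. It was seen at both ends of the brightness range, for HLA-C and B2M, brighter than 97.5% and 96.9% of the probes kept, and for PSMB8.

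The clones were then compared with each other, in a limma fit of all 4 arrays with a term for the dye. Each clone is 1 sample hybridised in a dye swap, so the p-values and intervals of this comparison rest on the error between arrays and not on a spread between clones. The mean was lower in sh-G2 than in sh-G1 for 12 of the 13 probes, as it was for 51.4% of all probes kept. Limma with Benjamini-Hochberg adjustment called 0 of the 13 as different, against 0.123% of all probes kept, and at an unadjusted p under 0.05 there was 1, PSMB9, or 7.69% of the members against 7.45% of all probes kept. PSMB9 was lower in sh-G2 by a log2 difference of -0.47, from -2.15 in sh-G1 to -2.62 in sh-G2, with a 95% confidence interval from -0.80 to -0.14 and an adjusted p of 0.435 in limma. For TAP1 the difference was -0.31, with an interval from -0.65 to 0.03, and for B2M it was 0.12, from -0.27 to 0.50. The intervals of HLA-B were the widest apart from that of HLA-E, from -1.11 to 0.18 and from -1.05 to 0.30. A 2-fold lower signal in sh-G2 than in sh-G1 lies within both HLA-B intervals. On 8 of the 13 probes the lowest of the 4 values was that of sh-G2 replicate 1, as on 31.7% of all probes kept, and without this array the median over the 13 probes was -0.58.

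**Figure D3:**
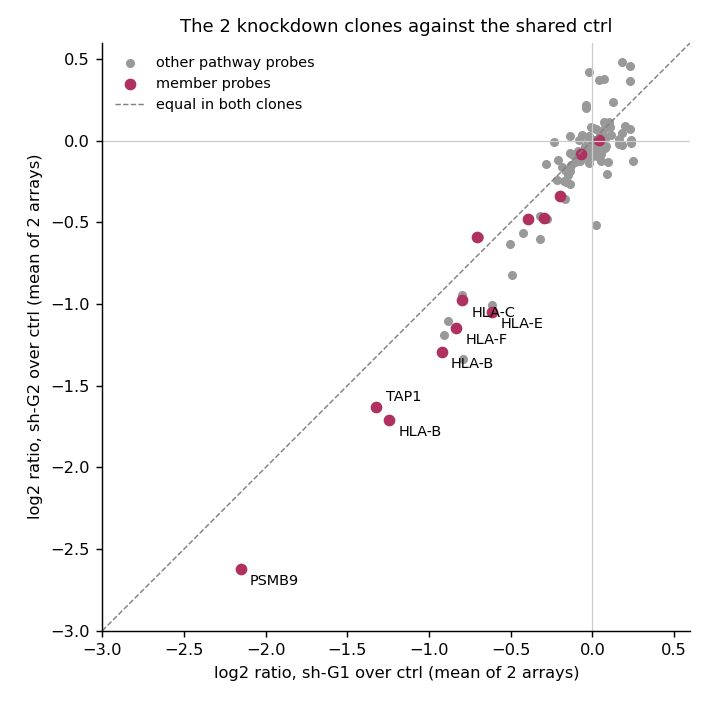
Mean log2 ratio over ctrl in sh-G1 (horizontal axis) and in sh-G2 (vertical axis), each the mean of 2 arrays, for the 13 member probes (red) and the 105 other probes of the antigen presentation lists (grey); the dashed line marks equal ratios. The members lie along the line from about 0 to PSMB9 at -2.15 and -2.62, and both axes share the ctrl clone.

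The other genes of the pathway were taken from lists of 70 genes, of which 67 had 105 probes kept. Of these probes limma called 1 lower and 0 higher, against 0.700% of all probes kept that were called lower. At least 1.5-fold lower on all 4 arrays were 5, against 0.920% of all probes kept, with 0 higher by that rule. At any size, 24 were lower on all 4 arrays, against 9.04% of all probes kept, and 1 was higher. At an unadjusted limma p under 0.05, 26 were lower, against 8.02% of all probes kept, and 4 were higher. The median of the 105 was -0.03. Among these genes, HLA-G, HLA-H and HLA-J belong to the class I heavy chain family, and their probes were below 0 on all 4 arrays without a call by limma. HLA-G, a chain known from the placenta, read -0.63, -0.97, -0.94 and -0.95, with a mean of -0.87 and a limma adjusted p of 0.0542. The pseudogene HLA-J had a mean of -1.05. HLA-H, another pseudogene, read -0.71, -0.87, -2.06 and -0.61, with a mean of -1.06 that moved to -0.70 without sh-G2 replicate 1. All 3 genes passed the 1.5-fold rule. The probes of HLA-G, HLA-H and HLA-J were bright, above 96.8%, 85.1% and 91.0% of the probes kept. Signal shared with the other class I heavy chains cannot be told apart here, so these are not shown to be separate decreases.

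The peptide loading factors had ratios near 0. Tapasin, the product of TAPBP, links the transporter to the heavy chain, and its 4 probes had means from -0.11 to -0.01. Over all 11 probes of TAPBP, TAPBPL, CALR, CANX and PDIA3, the means lay between -0.11 and 0.15, and 0 were called by limma, the smallest adjusted p being 0.490 and 0 having an unadjusted p under 0.05. Of the aminopeptidases that trim peptides, ERAP1 had a mean of -0.15 on its kept probe. ERAP2 fell on the probe A_23_P30243, which read -1.11, -0.65, -1.04 and -1.16, with a mean of -0.99 and a limma adjusted p of 0.0498. The second ERAP2 probe had a mean of -0.01, so the probes of this gene disagree.

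In the proteasome, the constitutive subunits had ratios near 0. The constitutive core and PSME3, 20 probes of 15 genes, had means between -0.21 and 0.15, with a median of -0.01 and 0 calls by limma. Of these probes 3 were lower at an unadjusted limma p under 0.05, against 8.02% of all probes kept. PSMB6, the constitutive subunit whose place PSMB9 takes, had a mean of 0.05, PSMB5, replaced by PSMB8, of 0.05, and PSMB7, replaced by PSMB10, of -0.02. The activator subunits PSME1 and PSME2, which are induced by interferon, lay between. PSME1 had means of -0.64 and -0.57 with limma adjusted p of 0.0686 and 0.0753, and PSME2 had a mean of -0.39 with an adjusted p of 0.157. PSMB10, the remaining inducible subunit, had a mean of -0.10. The 4 probes of PSMB10, PSME1 and PSME2 were all below 0 on every array, as were 9.04% of all probes kept.

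**Figure D4:**
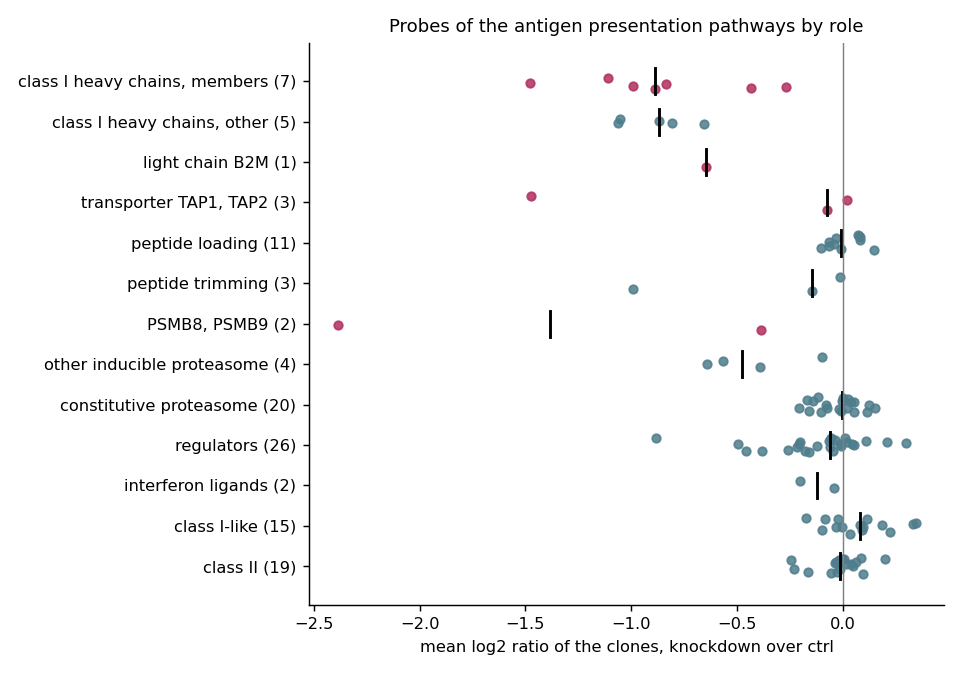
Mean log2 ratio of the clones for every probe kept in the lists, grouped by role with the number of probes in parentheses; red points are the 13 member probes, blue points are other genes, and black bars are medians. The class I heavy chains of both rows have medians near -0.9, while peptide loading, constitutive proteasome and class II genes have medians near 0.

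Regulators of these genes gave few differences. IRF9, the DNA-binding part of the complex that carries type I interferon signals, read -0.60, -0.98, -0.89 and -1.06 and was the 1 regulator past 1.5-fold on all 4 arrays, with a mean of -0.88 and a limma adjusted p of 0.0573. NLRC5 had 3 probes with means of -0.49, -0.18 and -0.01. IRF1 read 0.11, -0.42, 0.11 and -0.62, with a sign that followed the dye and a mean of -0.20. Over the 26 regulator probes the median was -0.06 and limma called 0, with 10 lower and 1 higher at an unadjusted p under 0.05. At that p, 8.02% of all probes kept were lower, and 2066 of the 39151 were higher. The interferon probes, IFNG and IFNB1, had means of -0.20 and -0.04, and limma called 0 of them, with 1 at an unadjusted p under 0.05.

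MHC class II genes, whose products show extracellular peptides to CD4+ T cells, share the chromosome region with TAP and PSMB genes. Over their 19 probes the median was -0.01 and the means ran from -0.25 to 0.20. Limma called 0 of them, with 2 lower at an unadjusted p under 0.05, against 8.02% of all probes kept. The 15 probes of class I-like genes such as MICA, MR1 and HFE had a median of 0.08 and 0 calls by limma. At an unadjusted limma p under 0.05, 3 of them were higher and 0 lower, against 2066 of all 39151 probes kept that were higher. In both lists the values lay on either side of 0.

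Finally, the members were placed among their neighbours, the 5 genes with a kept probe on each side in RefSeq order, which gave 50 genes other than members. HLA-G and HLA-H, both beside HLA-F, were the 2 at least 1.5-fold lower on all 4 arrays. Among all genes, each by its brightest probe, 218 of 16879 passed that rule. Signal that these 2 share with other class I heavy chains cannot be told apart. At any size, 9 of the 50 were lower on all 4 arrays, against 1738 of the 16879 genes. The median of the 50 was -0.03, and limma called 0 of them, the smallest adjusted p being 0.0542. Between HLA-DOB and HLA-DMB lie TAP2, PSMB8, TAP1 and PSMB9 in this order, with means of -0.08, -0.39, -1.48 and -2.39. The flanking HLA-DOB and HLA-DMB had means of -0.03 and -0.17. Around HLA-C and HLA-B, POU5F1 and MICA each had a mean of -0.10. Next to B2M on chromosome 15, SPG11 and TRIM69 had means of 0.05 and 0.02.

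**Figure D5:**
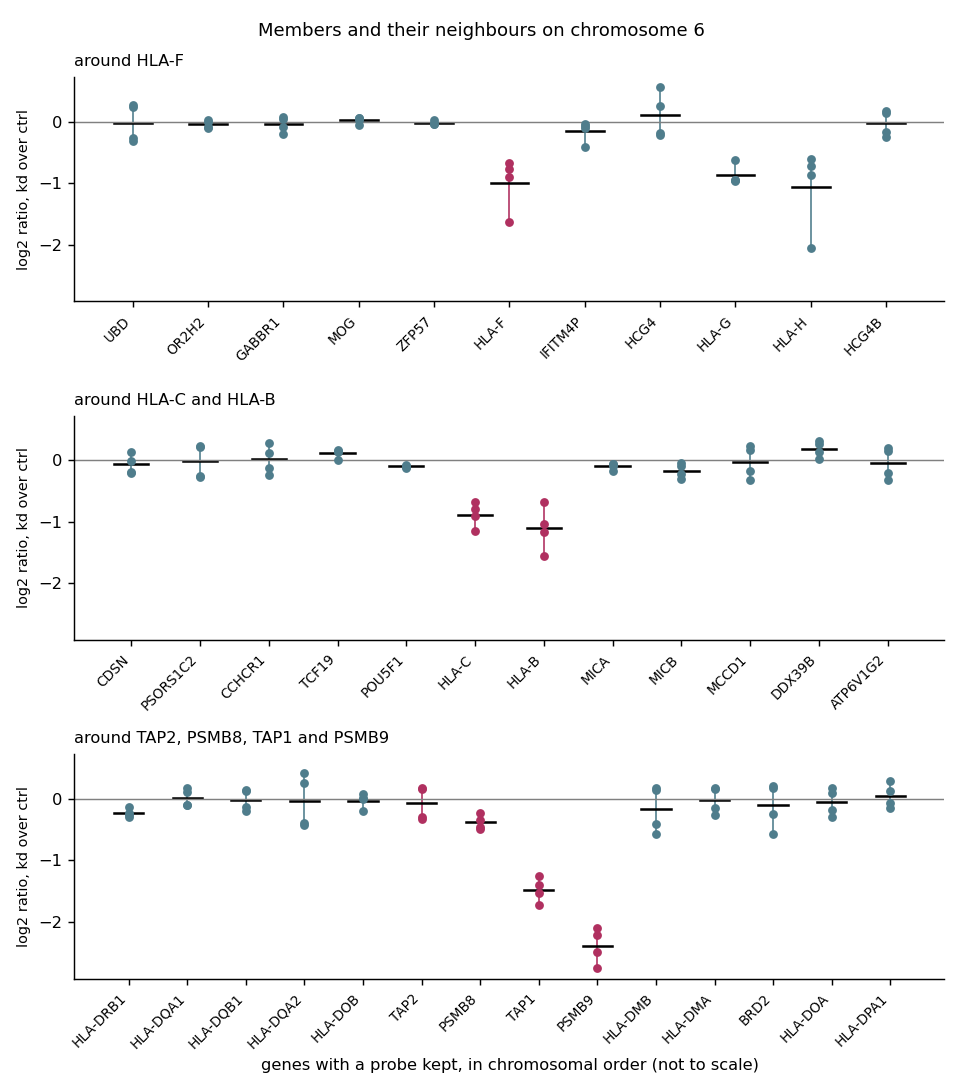
Log2 ratio of knockdown over ctrl on each of the 4 arrays (points, with the mean as a black bar) for members (red) and neighbouring genes (blue) in chromosomal order, not to scale, by the brightest probe of each gene. PSMB9 and TAP1 have means of -2.39 and -1.48, while the genes flanking the TAP and PSMB group lie around 0.

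The 5 genes outside the lists whose 4 values came closest to the median of the 9 members, -0.68, -0.77, -1.16 and -0.67, were HPGDS, HHIP, IGFBP6, UTP23 and CKB. Their mean absolute distance from it over the 4 arrays was 0.07 to 0.09. HPGDS, a prostaglandin D synthase, was the nearest and read -0.69, -0.73, -0.95 and -0.64. The likeness is over 4 arrays that share the ctrl clone, and it is given as a description.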

How the data were processed

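The authors scanned the arrays, read them with Agilent Feature Extraction (version 8.5.1.1 in the submitters' processing notes, 10.5.1.1 in the file headers), and deposited the median spot and local background intensity of each spot and channel, with marks for outliers and for signal above background. They also deposited the software's log10 ratio of Cy5 over Cy3, and a series matrix of log10 values in which 1 of the 4 columns, that of sh-G1 replicate 2, holds the error of the ratio and was left out. The deposited p-values are the software's own test within 1 array and were not used. The software's marks for outliers and background are coded as other values per the file headers.

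From the median intensities, background was corrected with normexp (offset 50), log2 ratios were normalised by loess on each array, and signs were set so that they give knockdown over ctrl. Outlier spots were left out, spots of a probe averaged, and probes without 1 channel marked as over background on each array removed. Where 1 value stands for a gene, it is that of its brightest probe. The 2 arrays of a clone were averaged, and limma 3.58.1 (lmFit, eBayes with trend) in R 4.3.3 tested the mean of the clones against 0, with p-values adjusted by Benjamini-Hochberg over all 39151 probes. The number of arrays limits the precision. Levels were taken after loess and Aquantile scaling and are open to dye bias. Probes were named through RefSeq accessions (25393 of 41000), whose table is of GRCh38.p14 and served for names, gene order and promoters, while the file headers name an older build. Of 92 genes in the other lists, 4 had no named probe, and some that enter the counts are not reported by name here. The members, the lists and the rule for genes named (members, pathway genes past either rule, 12 fixed pathway genes, neighbours past 1.5-fold, the 5 most alike) were chosen with earlier results of these data known. The steps were tested on simulated data. Alternatives tried were no background correction, offset 0, median centring, the software's ratio, the series matrix, other filters, outlier spots kept, each array or clone left out, the ctrl clone given a spread, the clone as a random block (statmod 1.5.0), and other fold rules. Python 3.11.15, pandas 2.3.3 and matplotlib 3.10.9 were used for lists and figures.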

Additional observations from a re-analysis of the deposited data

Results flagged for a closer look

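2 genes of the marker lists passed the limma test of the difference between the clones with Benjamini-Hochberg adjustment. Each clone is 1 sample on dye-swapped arrays, so the test sets the difference against the error between arrays, and it compares these clones only. DCN, a matrix proteoglycan of fibroblasts, read -4.12 and -4.37 in sh-G1 and -2.07 and -2.11 in sh-G2, so that it was higher in sh-G2 than in sh-G1 by a log2 difference of 2.15 (adjusted p = 0.0300). LUM, a related proteoglycan, read -4.65 and -4.51 in sh-G1 and -2.08 and -2.01 in sh-G2, a difference of 2.53 (adjusted p = 0.0182). Both are lower than ctrl on every array. The 13 class I member probes gave 0 such calls.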

How the results depend on the processing

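The 11 member probes other than those of TAP2 kept a mean below 0 under every alternative run. The size for the dim PSMB8 probe, -0.39 as reported, depended on the processing. Its mean was -0.32 with median centring, -0.63 with offset 0, -0.73 with the software's ratio and -0.79 with the series matrix. The number called by limma was 0 of 13 with the ctrl clone given a spread, 1 with both channels required above background (TAP1 then at an adjusted p of 0.0510), 6 with the software's ratio, 7 with the series matrix, 11 with the clone as a random block, and 3 to 8 with 1 array left out. PSMB9 was called in 13 of 14 settings and TAP1 in 12 of 14. At 2-fold on all 4 arrays, 3 member probes passed in place of 6. Without 1 array the median of the 13 probes lay between -0.98 and -0.58 and that of the 9 genes between -0.98 and -0.75, the values nearest 0 being those without sh-G2 replicate 1.

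Of the other pathway probes, the 1 called became 0 with both channels required, with a spread for ctrl or without background correction, 2 with median centring, 4 with the software's ratio, 8 with the series matrix, 17 with the random block, and 1 to 9 without 1 array. The 2 neighbours past 1.5-fold became 1 with median centring and 0 at 2-fold, with the software's ratio or with the series matrix. The GALNT3 mean turned positive with median centring (0.16), without background correction (0.0254) and with the software's ratio (0.115), and ran from -0.0756 to 0.0592 without 1 array. Signs also turned for NLRC5 probe A_32_P416583 (0.0759 with the software's ratio, 0.261 with the series matrix), PSMB5 (-0.0182 with the matrix) and PSMB6 (-0.00119 and -0.195). Leaving out 1 array gave ranges across 0 for this NLRC5 probe (-0.149 to 0.122), PSMB6 (-0.00608 to 0.106), PSMB7 (-0.119 to 0.0863), TAPBP probe A_23_P365719 (-0.335 to 0.123) and the TAP2 probes A_23_P214444 (-0.201 to 0.0507) and A_23_P368067 (-0.0825 to 0.123). The cause of these changes was not tested. With an array left out, the difference between the clones has no test. Knockdown and ctrl were paired within each array, by the ratio. No further pairing of sh-G1 with sh-G2 was possible, because they share the ctrl clone. A replicate number gives the dye, which is a term of the fit between clones. Signal near background limits PSMB8 and GALNT3.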
